A study of Hordeum vulgare subsp. vulgare with 8 samples.

Results

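Splicing of 4 hormone genes was followed in germinating barley embryos. The genes were picked by their identifiers, and the study had already reported all 4 as alternatively spliced in these samples. They were VP1 (MLOC_69727), an SnRK2 gene (MLOC_22145), an AUX/IAA gene (MLOC_65332) and an auxin efflux carrier gene of the PIN type (MLOC_12686). All 4 were among the 4634 genes in the lists of alternative 3' splice site (A3S) and alternative 5' splice site (A5S) events. For VP1, SnRK2 and AUX/IAA the study had reported A3S events, so their presence in the lists was fixed by the choice. For PIN it had reported intron retention, which these lists do not hold. They had 30 of the 15995 listed entries and 9 of the 8325 distinct events. Embryos of 4 varieties (Bass, Harrington, Stirling, Baudin) were taken after 24 h and 48 h of imbibition in the dark, from seeds of the same field trial. All seeds had been surface sterilised with hypochlorite, and no treatment differed between the groups. Poly(A) RNA from pooled embryos of each variety at each time was sequenced as 1 library, which gave 8 libraries. The 4 varieties were therefore the only measure of spread at a time, which also holds the genetic differences among varieties. The identity of the tissue was not checked with marker genes here.

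In cereal seeds, VP1 is a B3 domain transcription factor of seed maturation and dormancy that acts in the response to abscisic acid (ABA), and it is the counterpart of Arabidopsis ABI3. SnRK2 kinases act one step before such factors. They are held inactive by type 2C protein phosphatases and are released when ABA is bound by its receptors. AUX/IAA proteins are short-lived repressors of the auxin response, and auxin efflux carriers move auxin out of cells. In an A3S event the upstream exon is joined to 2 alternative starts of the next exon, and in an A5S event an exon has 2 alternative ends that are joined to the same downstream exon. An entry gives a constitutive exon plus 2 forms of its neighbour, the annotated and the alternative one. For each of the 3 it gives the position, the mean depth in reads per base and a value that the deposited column note calls a minimum depth. It was taken here for the share of bases covered, since it gave whole bases when multiplied by the length, and the depths between splice sites given below rest on this reading. Reads per splice junction are not in the lists, and a library in which an event was not listed is not a measured 0.

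The 9 distinct events were 6 A3S and 3 A5S. The alternative form was longer than the annotated exon in 4 and shorter in 5. The length changed by a multiple of 3 in 5 events, which keeps the reading frame if the stretch is coding, and by another number in 4, which shifts it. The coding part of each exon was not examined here. Across all genes the frame was kept in 39.7% of 5473 distinct A3S events and in 33.1% of 2852 A5S events. An event was taken as the same when all its exon coordinates were the same. By that measure 2 of the 9 events were listed in all 8 libraries and 4 in a single library. Among all distinct events, 2.48% of A3S and 1.3% of A5S were in all 8 libraries, and 62.1% and 62.9% were in a single library. The 4 genes were picked with their earlier splicing calls known, so these shares are no test of them.

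**Figure D1:**
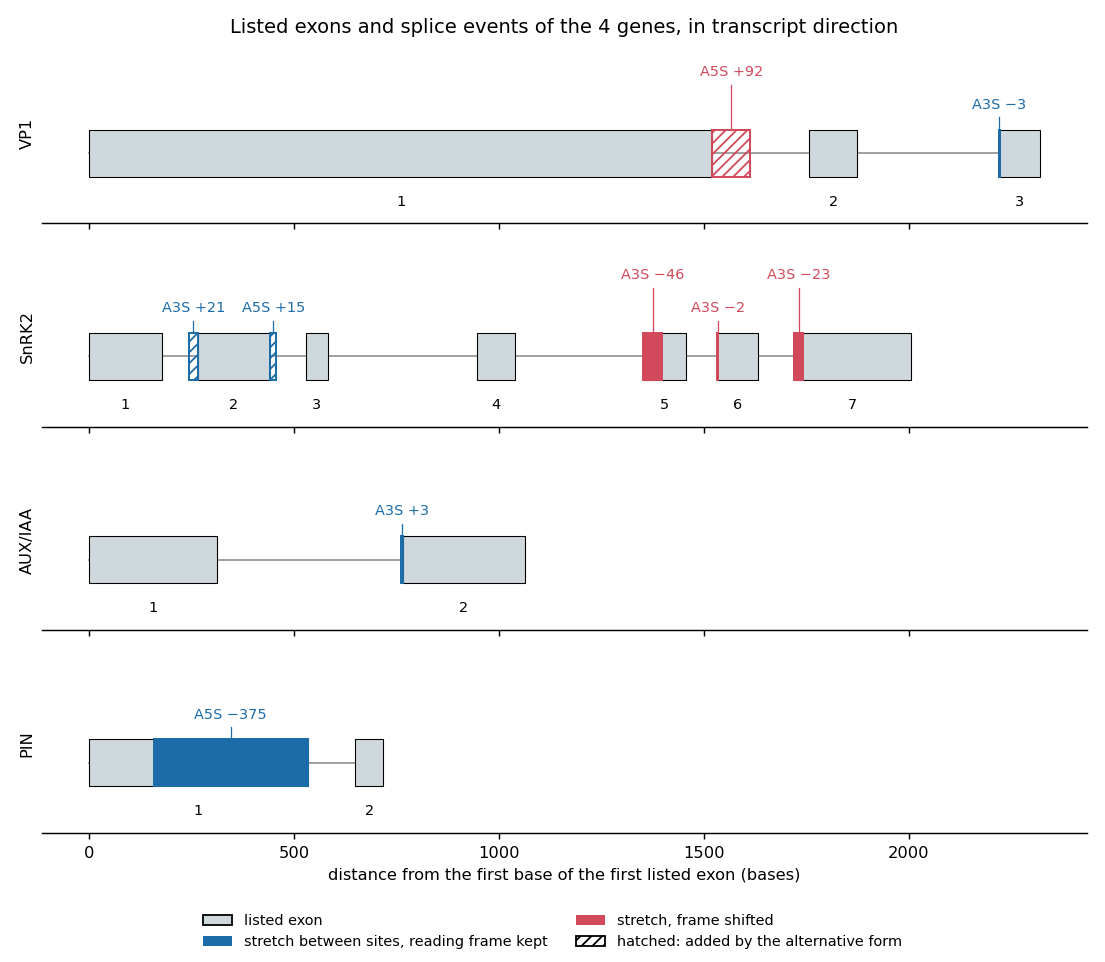
Listed exons (grey boxes, numbered in transcript order) of the 4 genes against the distance in bases from the first base of the first listed exon. Coloured boxes are the stretch between the annotated and the alternative site, hatched where the alternative form adds it, filled where it removes it (the 3 nt stretch of AUX/IAA is added but is too narrow to show hatching), blue where the frame is kept and red where it is shifted. The largest stretch is the 375 nt of PIN, and the 5 events of SnRK2 lie at 4 of its 7 listed exons.

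**Figure D2:**
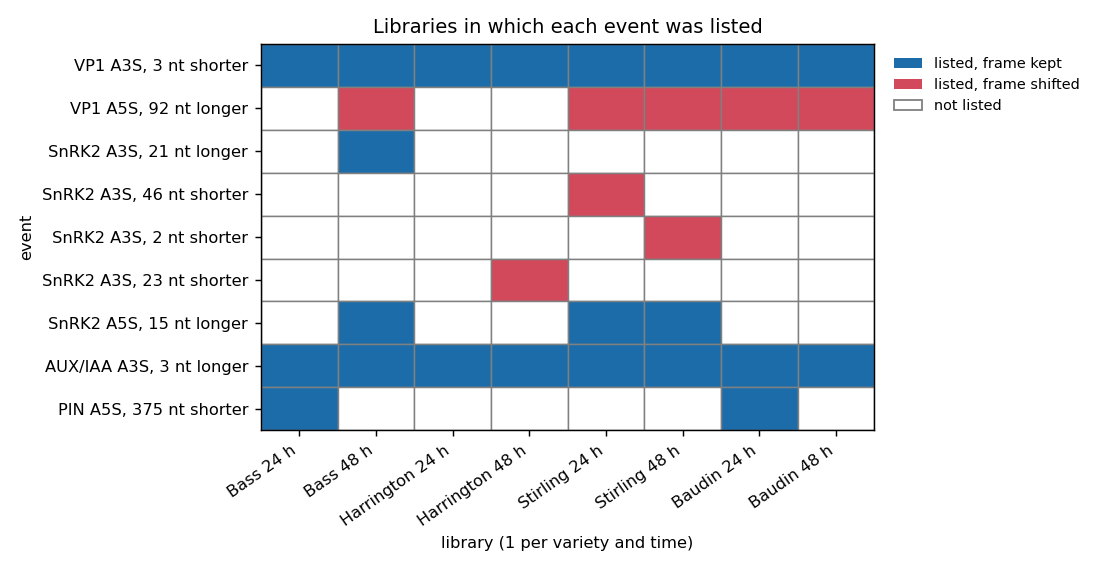
Listing of the 9 events (rows) in the 8 libraries (columns), with blue for frame kept, red for frame shifted and white for not listed. The 3 nt events of VP1 and AUX/IAA fill all 8 columns, while each of the 4 A3S events of SnRK2 fills 1.

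The transcription factor gene VP1 had both types of event. Its listed transcript, MLOC_69727.2, lies on the minus strand of the sequence labelled LG02 in the alignment to the Morex (IBSC) assembly. It had 3 listed exons, in transcript order of 1521, 117 and 101 nt. The A3S event was at the start of the 101-nt exon (39264799 to 39264899). The alternative site was 3 nt further into the exon, so that 98 nt remained, 1 codon was lost and the intron grew from 345 to 348 nt. The A5S event was at the end of the 1521-nt exon (39265598 to 39267118). It added 92 nt up to position 39265506, which made an exon of 1613 nt, shortened the intron from 236 to 144 nt and shifted the frame, since 92 leaves a remainder of 2 when divided by 3. The 117-nt exon (39265245 to 39265361) was the constitutive exon of both events.

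The A3S event of VP1 was listed in all 8 libraries, as were A3S events of 4.25% of the 3574 genes with A3S. Of the 466 distinct A3S events with sites 3 nt apart, 10.3% were in all 8 libraries. The A5S event was listed in 5 libraries, which were Stirling and Baudin at both times and Bass at 48 h. A5S events in at least 5 libraries were found in 11.3% of the 2116 genes with A5S. The 3 libraries without the event were Bass 24 h and both libraries of Harrington. The 117-nt exon had depths of 19.4, 11.7 and 24.2 there. The value of Harrington 24 h was below the 16.5 to 35.2 of the 5 libraries with the event, and the other pair lay within that range.

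The 117-nt exon of VP1 was deeper at 48 h than at 24 h in each variety. Its deposited depth was 19.4 at 24 h and 29.7 at 48 h in Bass, 11.7 and 24.2 in Harrington, 23.3 and 35.2 in Stirling, and 16.5 and 24.97 in Baudin. The lowest 48 h value, that of Harrington, was above the highest 24 h value, that of Stirling. After scaling of the libraries by the median ratio of exon depths, the 24 h libraries had a mean of 16.3 ± 3.78 (SD, n = 4 varieties) and the 48 h libraries one of 30.6 ± 4.81 (SD, n = 4). The difference was 0.90 on the log2 scale (SE 0.187, 95% interval 0.47 to 1.33, 1.87-fold, adjusted p = 0.0179, limma with variety as a block), higher in 4 of 4 varieties. The test covered the 374 exons listed in all 8 libraries. Of these, 20.1% changed (adjusted p below 0.05) and 10.7% rose. Scaled depth was higher at 48 h in all 4 varieties in 22.7% of the 374 exons. In 13.9% all scaled 48 h values were above all scaled 24 h values. With deposited depths that share was 7.22%. More cells that express a gene and more RNA per cell cannot be told apart in whole embryos.

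The call for the 117-nt exon depended on single varieties. Its adjusted p was 0.056 without Bass, 0.0543 without Harrington, 0.0849 without Baudin and 0.0391 without Stirling, while the log2 difference stayed between 0.83 and 0.94. Over all 374 exons the number that passed was 75, against 19 without Bass, 46 without Stirling, and 0 without Harrington or without Baudin, where 127 and 106 exons had an unadjusted limma p below 0.05. Scaling by the summed depth gave the VP1 exon 0.57 (adjusted p = 0.0636), but this scaling moved the median of all 374 exons from -0.03 to -0.36.

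The 101-nt exon of VP1, which holds the A3S site, was shallower than the 117-nt exon in all 8 libraries. Its depth was 2.98 at 24 h and 13.0 at 48 h in Bass, 3.60 and 5.84 in Harrington, 17.9 and 14.3 in Stirling, and 7.58 and 9.05 in Baudin. It was higher at 48 h in 3 of 4 varieties and the groups overlapped. The log2 difference in scaled depth was 0.82 (SE 0.346, 95% interval 0.03 to 1.61, limma, adjusted p = 0.121) and did not pass the test. As a share of the depth of the 117-nt exon it ranged from 15.4% in Bass 24 h to 76.5% in Stirling 24 h, and the 4 libraries of 48 h lay between 24.1% and 43.8%. The share was lower at 48 h than at 24 h in Harrington, Stirling and Baudin and higher in Bass.

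The 1521-nt exon of VP1 had a narrow range of depth in the 5 libraries that listed it. The depth was 28.6 in Bass 48 h, 29.3 and 28.5 in Stirling at 24 h and 48 h, and 26.0 and 29.6 in Baudin. After scaling, the 48 h value was 1.12 times the 24 h value in Stirling and 1.35 times in Baudin. In the same pairs the 117-nt exon was 1.74 and 1.79 times as deep and the 101-nt exon 0.93 and 1.41 times. The exons of 1 transcript thus gave different ratios, and the long exon, which rests on the most bases, gave values nearer to 1 than the 117-nt exon. With 2 pairs no test was made.

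**Figure D3:**
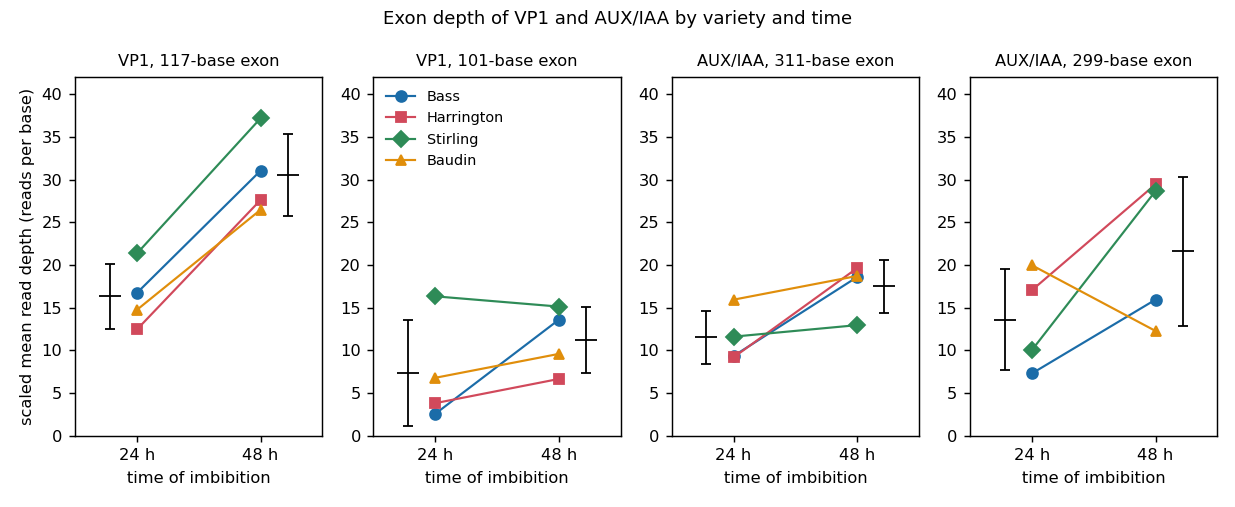
Scaled mean read depth (reads per base) of 4 exons of VP1 and AUX/IAA at 24 h and 48 h. Lines join the 2 libraries of a variety, and black bars are the mean ± SD over 4 varieties. In the 117-nt exon of VP1 all 4 values of 48 h lie above all values of 24 h, and in the other 3 exons the groups overlap.

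From the depths of both forms the depth of the bases between the sites (the stretch) was worked out and set against that of the part which both forms share. It was not read as a measure of how often a site was used, since reads per splice junction are not in the lists. The stretch was shallow in comparable events of other genes too, and the cause was not tested. In A3S events that shorten the exon by 3 nt, the median was 21.4% of the shared part over 1185 listed entries (middle 50% of entries, 6.04% to 51.9%). Where some bases of the exon were uncovered, the depth of the stretch is known only within limits.

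The 3 nt that the A3S event of VP1 removes were not covered to the same extent in the varieties. In Stirling the stretch had a depth of 13.0 at 24 h and 8.0 at 48 h, or 72.2% and 55.0% of the shared part. In Bass it was between 3.0 and 4.0 at 24 h and 4.33 at 48 h, or 108% to 144% and 32.6%. In Harrington it was between -0.67 and 0.33 at 24 h and 2.0 at 48 h, the latter 33.6%. In Baudin it was between -0.33 and 0.67 at 24 h and between -1.0 and 0 at 48 h, that is, at or near 0 at both times. A negative value has no meaning as a depth and shows the error of the computation. Both libraries of Stirling and Bass 24 h were above the middle 50% of comparable events. Both libraries of Baudin had a middle value below it, as had Harrington 24 h. The share in Bass 24 h rests on a shared part with a depth of only 2.79.

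Between 24 h and 48 h the relative depth of this stretch did not pass the test. The log2 difference was -0.30 (SE 0.562, 95% interval -1.77 to 1.16, limma, adjusted p = 0.968). The percentage was lower at 48 h in 3 of 4 varieties by its middle value. The mean was 48.8% ± 62 (SD, n = 4) in the 24 h libraries against 28.9% ± 25.3 (SD, n = 4) in those of 48 h. The spread between varieties was thus larger than the difference. These means hold the negative middle values of Harrington 24 h and Baudin 48 h, which were set to 0 in the test. Bass 24 h carried the order of these means, since without Bass they were 23.1% ± 42.7 (SD, n = 3) and 27.6% ± 30.8 (SD, n = 3). Of the 136 A3S events in all 8 libraries, 0% passed, and 14 had an unadjusted limma p below 0.05. With no block for variety 3 passed, none of them in these genes.

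The 92 nt that the A5S event of VP1 adds had a depth of 3.87 in Bass 48 h, 11.6 in Stirling 24 h, 4.88 in Stirling 48 h, 8.33 in Baudin 24 h and 7.93 in Baudin 48 h. This was 13.5%, 39.5%, 17.1%, 32.1% and 26.8% of the 1521-nt exon. The percentage was lower at 48 h than at 24 h in Stirling and Baudin, the only varieties that listed the event at both times. How many other events fell in such pairs was not computed. A5S events that lengthen the exon by 40 to 100 nt had a median of 15.5% (middle 50%, 6.47% to 47.1%, 263 entries), and all 5 values lay within this range. Of the 37 A5S events in all 8 libraries, 5.41% changed in the same kind of test (limma, adjusted p below 0.05). The VP1 event was in 5 libraries and was not tested.

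**Figure D4:**
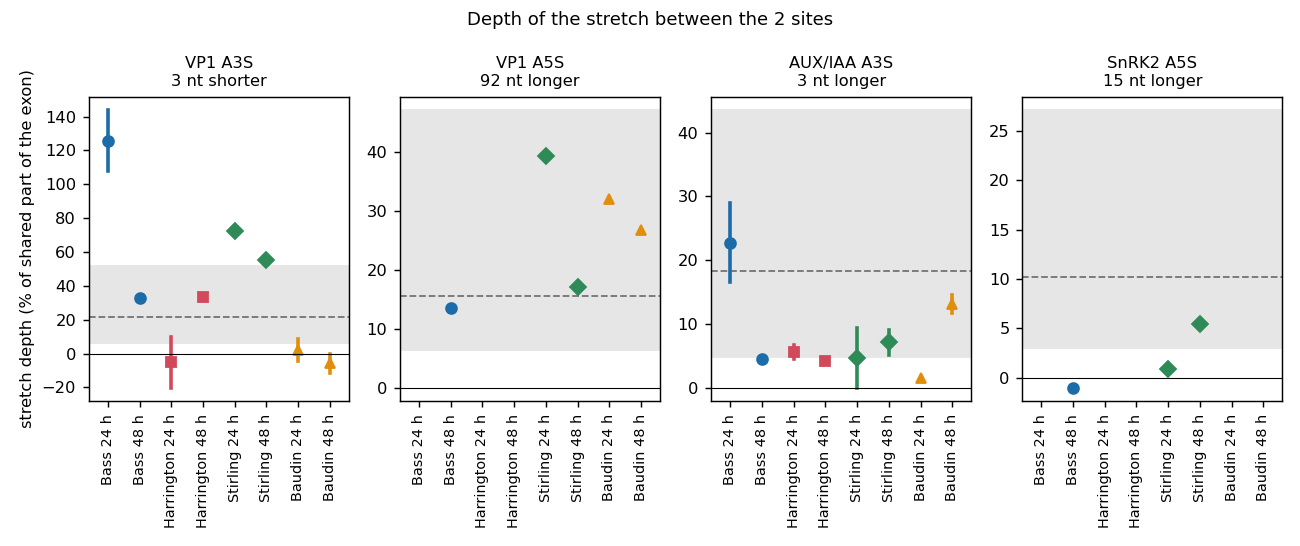
Depth of the stretch between the 2 sites in percent of the shared part of the exon (y axis) for 4 events by library (x axis). Points are middle values, vertical bars the limits, the dashed line the median and the grey band the middle 50% of all listed events of the same type, direction and distance class. VP1 A3S runs from near 0 in Baudin to 72.2% in Stirling 24 h and above 100% in Bass 24 h, and the 3 values of the SnRK2 A5S event lie at or below 5.48%.

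The SnRK2 gene had 5 distinct events, and 5 or more were found in 4.16% of the 4634 listed genes. Its transcript MLOC_22145.2 lies on the minus strand of LG04. It had 7 listed exons, in transcript order of 177, 177, 54, 93, 105, 99 and 285 nt. Each of its 4 A3S events was listed in a single library, and 4 or more distinct A3S events were found in 4.22% of the 3574 genes with A3S. The gene was listed with A3S in 1 variety at 24 h and in 3 varieties at 48 h. No event of this gene was listed in Baudin. With the requirement that an event be listed in at least 2 libraries, no A3S event of the gene remained.

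The A3S events of SnRK2 fell at exons 2, 5, 6 and 7. In Bass 48 h, exon 2 (124499112 to 124499288) was 21 nt longer, or 7 codons, with the frame kept and the intron shortened from 88 to 67 nt. In Stirling 24 h, exon 5 (124498097 to 124498201) was 46 nt shorter and kept 59 of its 105 nt. In Stirling 48 h, exon 6 (124497922 to 124498020) was 2 nt shorter. In Harrington 48 h, exon 7 (124497549 to 124497833) was 23 nt shorter. The last 3 events shifted the frame, with remainders of 1, 2 and 2 after division by 3. The gene's kept-frame events were thus both at exon 2, and its shifted ones in the later listed exons.

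The stretches of these events were covered to very different extents. The 46 nt at exon 5 had a depth of 108 in Stirling 24 h, 96.8% of the 112 of the rest of the exon, so that the depth hardly differed on the 2 sides of the alternative site. Events that shorten an exon by 40 to 100 nt had a median of 77.0%. The 21 nt before exon 2 had a depth of 16.8, or 14.7% of the exon, against a median of 10.7% for exons lengthened by 15 to 30 nt. The 2 nt at exon 6 had 11.0, or 16.9%, against 31.1% for sites 2 nt apart. The 23 nt at exon 7 had 21.3, or 16.3%, against 45.3% for exons shortened by 15 to 30 nt. This value was below the middle 50% of such events, whose lower end was 22.6%.

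The A5S event of SnRK2 added 15 nt, or 5 codons, to the end of exon 2 and was listed with the same coordinates in Bass 48 h, Stirling 24 h and Stirling 48 h. The added stretch had a depth of -1.14, 0.67 and 4.87 in these libraries, that is, near 0 in the first and 5.48% of exon 2 at the most. The median of A5S events that lengthen an exon by 15 to 30 nt was 10.2% (middle 50%, 3.01% to 27.1%). In Bass 48 h exon 2 was listed with a longer form at both of its ends.

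In SnRK2, 2 listed exons in a row were far shallower than the listed exons on either side of the pair. Exon 3 (124498972 to 124499025), the constitutive exon of the A5S event, had a depth of 2.17 in Bass 48 h, 3.83 in Stirling 24 h and 2.74 in Stirling 48 h. Exon 2 had 114, 74.8 and 88.7 in the same libraries. Exon 4 (124498515 to 124498607) had 7.24 in Stirling 24 h, where exon 5 had 110. Relative to the deepest listed exon of the gene in the library, exon 3 was at 1.34% to 3.47% and exon 4 at 6.55%. Short exons were also shallow over the genes with at least 3 listed exons in a library. Their median was 15.6% of the deepest listed exon below 60 nt (lower quartile 4.44%) and 44.0% from 90 to 150 nt (lower quartile 21.2%). Both SnRK2 exons were below the lower quartile of their length class. The other depths were 162 for exon 1 in Bass 48 h, 91.1 for exon 5 in Stirling 48 h, 64.5 and 63.9 for exon 6 in Harrington 48 h and Stirling 48 h, and 121 for exon 7 in Harrington 48 h.

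**Figure D5:**
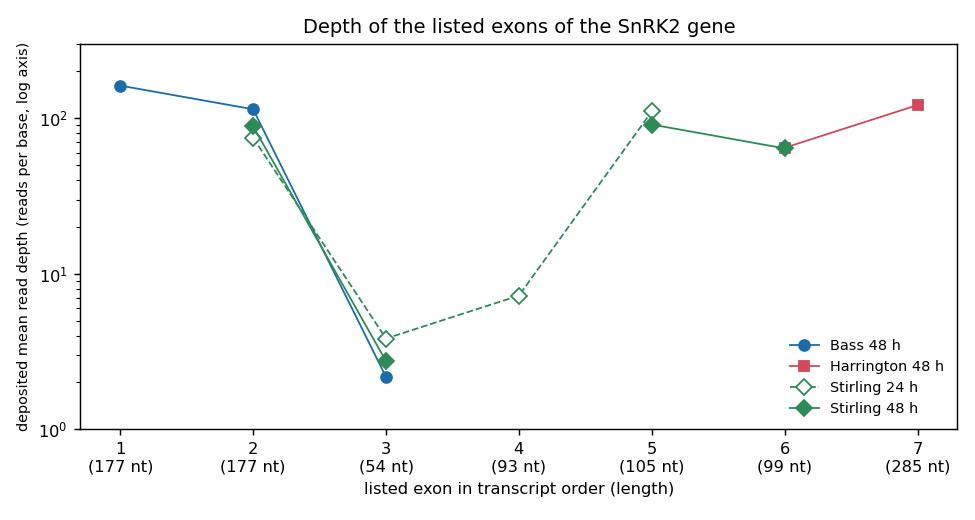
Deposited mean read depth (log axis, reads per base) of the 7 listed exons of the SnRK2 gene in the 4 libraries that listed it. Open symbols and the dashed line are 24 h, filled symbols 48 h. Exons 3 and 4 lie between 2.17 and 7.24, and the other 5 exons between 63.9 and 162.

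Only Stirling listed SnRK2 exons at both times. After scaling, exon 2 was at 68.4 at 24 h and 93.7 at 48 h, exon 5 at 101 and 96.1, and exon 3 at 3.51 and 2.89. Exon 2 was therefore higher and the other pair slightly lower at 48 h. There was no replicate for this comparison and no test.

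The AUX/IAA gene had 1 event, and it was listed in all 8 libraries. Its transcript MLOC_65332.2 lies on the plus strand of LG01. The alternative 3' site was 3 nt before the annotated start of the 299-nt exon (142678519 to 142678817). The exon became 302 nt, 1 codon was added, the frame was kept, and the intron behind the 311-nt constitutive exon (142677754 to 142678064) went from 454 to 451 nt. VP1 and AUX/IAA thus both had a 3 nt A3S event in each library, but in VP1 the alternative form was the shorter and in AUX/IAA the longer one. Of the 466 A3S events with sites 3 nt apart, 23.6% had a longer alternative form. No A5S event of the gene was listed.

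The added 3 nt of AUX/IAA were at low depth in nearly all libraries. The depth was between 1.33 and 2.33 in Bass 24 h and 0.66 in Bass 48 h, and between 0.67 and 1.0 in Harrington 24 h and 1.0 in Harrington 48 h. It was between 0 and 1.0 in Stirling 24 h and between 1.34 and 2.34 in Stirling 48 h, and 0.33 in Baudin 24 h and between 1.33 and 1.67 in Baudin 48 h. The middle values were 1.48% to 22.7% of the shared part at 24 h and 4.12% to 13.1% at 48 h. By its middle value, Bass 24 h was the only one of the 8 libraries above the median of 18.3% for A3S events that add 3 nt (340 entries). The mean was 8.61% ± 9.56 (SD, n = 4) in the 24 h libraries against 7.20% ± 4.14 (SD, n = 4) in those of 48 h. Without Bass the order turned, with 3.91% ± 2.16 (SD, n = 3) and 8.10% ± 4.56 (SD, n = 3). The log2 difference was -0.04 (SE 0.674, 95% interval -1.80 to 1.72, limma, adjusted p = 0.968), and the interval allows changes of more than 1 in either direction.

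The 2 exons of AUX/IAA did not follow the same course in all varieties. The 311-nt exon had depths of 10.8 at 24 h and 17.8 at 48 h in Bass, 8.66 and 17.2 in Harrington, 12.7 and 12.3 in Stirling, and 17.8 and 17.7 in Baudin. It was about 2 times as deep at 48 h in Bass and Harrington after scaling (1.99 and 2.14) and close to the same in Stirling and Baudin (1.12 and 1.17). The 299-nt exon had 8.46 and 15.3 in Bass, 16.1 and 25.8 in Harrington, 11.0 and 27.2 in Stirling, and 22.3 and 11.6 in Baudin. It was lower at 48 h in Baudin and higher in the other varieties. In Baudin the scaled ratio was 0.61. The log2 differences were 0.60 (SE 0.231, 95% interval 0.07 to 1.13, limma, adjusted p = 0.0994) and 0.66 (SE 0.335, 95% interval -0.11 to 1.43, limma, adjusted p = 0.183), and neither passed the test. The 299-nt exon had 65.5% of the depth of the 311-nt exon in Baudin 48 h and 221% in Stirling 48 h, the extremes of the 8 libraries. A 48 h library was at each end, so this ratio did not separate the times.

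The auxin efflux carrier gene (PIN) had 1 event, and it was listed at 24 h in Bass and Baudin and at 48 h in no library. Among the 2116 genes with A5S, 38.7% were listed at 24 h only. Bass 24 h and Baudin 24 h were also the 2 libraries with the most listed events of all genes, 2537 and 2306. The libraries of 48 h had 1711 to 1937. The PIN transcript MLOC_12686.1 lies on the plus strand of LG10. The alternative 5' site was 375 nt before the annotated end of a 533-nt exon (79863216 to 79863748). The exon would then end at position 79863373 after 158 nt, 125 codons would be lost with the frame kept, and the intron would grow from 116 to 491 nt. A shortening by 375 nt or more was found in 19 of the 2852 distinct A5S events, or 0.666%. No A3S event of the gene was listed.

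The shared 158 nt of the PIN exon were much deeper than the 375 nt behind them. The shared part had a depth of 147 in Bass 24 h and 120 in Baudin 24 h, and the stretch between the sites had 28.9 and 36.7. The stretch was thus at 19.6% and 30.5% of the shared part. The next exon, of 69 nt (79863865 to 79863933), had a depth of 33.4 and 37.6, close to that of the stretch in both libraries. Over 39 entries with an A5S shortening of more than 300 nt the median was 96.4% and the lower quartile 50.3%, and both values of PIN were below that quartile. The whole 533-nt exon had 63.9 and 61.5. The library kit did not mark strand, so reads from a gene and from an overlapping antisense partner cannot be told apart, and no annotation of this build was used here. SnRK2, AUX/IAA and PIN are members of gene families, and how reads that match several members entered the exon depths is not given in the sources used here. For split reads, the junction caller kept only some cases with several hits.

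The course of depth over the 8 libraries was compared between genes as the root mean square difference of scaled log2 depths, each centred on its own mean. The measure took the deepest exon of each gene listed in all 8 libraries, and 188 genes were compared. The pattern of the 117-nt exon of VP1 was nearest to those of MLOC_74504 (a difference of 0.201 on the log2 scale), MLOC_18369 (0.215) and MLOC_11028 (0.27), with a median over all genes of 0.624. For the 299-nt exon of AUX/IAA the nearest were MLOC_63920 (0.455), MLOC_64646 (0.461) and MLOC_11785 (0.473), with a median of 0.732. AUX/IAA had no gene as near to it as the 3 genes were to VP1. The values share libraries and are a description.

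Other genes of the hormone pathways were taken from a list of 40, part of which the study had picked on these samples. Of these, 15 were listed with A3S or A5S in at least 1 library and 25 in none. By hormone, the listed genes were 8 of 13 for ABA (kinases, phosphatases and ripening proteins), 4 of 12 for auxin, 0 of 6 for gibberellin, 1 of 4 for cytokinin, 1 of 2 for jasmonate and 1 of 3 for ethylene. Some genes entered the list because the study had found them alternatively spliced, and the share listed among all genes was not computed here, so the hormones cannot be compared by these counts. Among the other SnRK2 genes, MLOC_69212 was listed with A3S in each of the 8 libraries and MLOC_63787 in 3 varieties at 24 h and 4 at 48 h. The type 2C protein phosphatases are negative regulators of SnRK2, and 3 of their genes had A3S in a varying number of varieties. MLOC_73139 was listed in 0 varieties at 24 h and 3 at 48 h, MLOC_13677 in 1 and 3, and MLOC_75827 in 3 and 0. The other phosphatase genes of the list had no A3S entry. Among the auxin response factors, the transcription factors that AUX/IAA proteins repress, MLOC_51932 had A3S in 3 and 4 varieties and MLOC_58330 in 3 and 0. Of all 3574 genes with A3S, 34.3% were listed at 24 h only and 24.7% at 48 h only.

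The exon test reached 1 of the 40 genes, by 1 exon, and that exon passed. The 99-nt exon of MLOC_69212 (LG01, 2454699 to 2454797) had depths of 103 at 24 h and 187 at 48 h in Bass, 125 and 182 in Harrington, 125 and 168 in Stirling, and 72.9 and 166 in Baudin. All 48 h values were above all 24 h values, as in 7.22% of the 374 exons by deposited depth and 13.9% by scaled depth. Of the 374 exons, 20.1% changed in the test and 22.7% were higher at 48 h in all 4 varieties by scaled depth. The log2 difference was 0.95 (SE 0.216, 95% interval 0.46 to 1.45, limma, adjusted p = 0.0216), higher in 4 of 4 varieties. The adjusted p was 0.0847 without Bass, 0.0543 without Harrington, 0.035 without Stirling and 0.112 without Baudin, and 0.0584 with scaling by the summed depth. The difference was thus of the size of that in the 117-nt exon of VP1, with the same dependence on single varieties. Another exon of MLOC_69212, of 105 nt (2454905 to 2455009), was tested only among exons listed at both times in at least 3 varieties. Its log2 difference was 0.91 (limma, adjusted p = 0.0667) and did not pass, while the 99-nt exon had an adjusted p of 0.0278 there.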

How the data were processed

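Germinating embryos of 4 barley varieties were sequenced at 24 h and 48 h, 1 library each, in 8 libraries. The authors aligned reads to the Morex (IBSC) genome with SOAP2 and called junctions with SOAPsplice. The deposited lists give, per event, the position, mean read depth (coverage in reads per base, with no scaling) and a value called a minimum depth in the column note, for 3 exons. This value times the length was whole in 100% of partly covered exons under 300 bases, so it was read as the covered share. How depth was computed is not given in the sources used here. In partly covered exons under 300 bases with a depth under 50, depth times covered bases was whole (tolerance 0.02) in 100% of constitutive and annotated exons, and depth times length in 100% of alternative exons. Depths of the former were therefore read as means per covered base and of the latter as means over the whole exon. In 44.8% of 5279 partly covered annotated exons the alternative form covered more bases than the annotated form allowed, so a base was read as covered there from a depth of 2, and the stretch depth was given limits. It was still below 0 by more than a small tolerance in 4.26% of the fully covered cases. Any stretch depth below 0 was set to 0 in the tests.

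Libraries were scaled by the median ratio of exon depths, with factors of 0.877 to 1.16. The median depth of the 374 exons in all libraries was 32.4 to 41.8. Log2 values with 0.5 added were compared in limma 3.58.1 (R 4.3.3) with a term for variety, and p-values were adjusted by Benjamini-Hochberg over all exons (374) or over all A3S (136) or A5S (37) events in all 8 libraries. The fits were tested on simulated data with known changes. Tables were made with Python 3.11.15 and pandas 2.3.3. Samples pair by variety, which was sampled at both times, and the correlation of deviations within a variety was 0.01 to 0.42 for exon depth, -0.31 to 0.43 for A3S and -0.16 to 0.04 for A5S stretches. Each library was made from pooled embryos, with 1 library per variety and time. With the term for variety, p-values rest on how far the difference between 48 h and 24 h varied from variety to variety. This variation also holds the differences between single libraries, and limma drew it toward that of all exons or events tested.

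The members and lists were chosen with earlier results of these data known. The genes named are the 4 members, the hormone list by counts with values for a gene that passed the exon test, and the 3 genes nearest in pattern. Other genes of the hormone list were named after their values were seen. Alternatives were no block, each variety left out, other scalings, filters on depth, on distance and on listing, and another pseudocount. The limits of the stretch, no allowance for bases of depth 1 and depth over the full exon length were added after seeing the data. No sequence is printed, since none of this build was used here.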

Additional observations from a re-analysis of the deposited data

Results flagged for a closer look

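In 1 of 12 groups of 4 libraries that were looked at (4 exons and 2 stretches, at 24 h and 48 h), a single library stood apart from the other 3. The 311-nt exon of AUX/IAA at 48 h had a scaled depth of 13.0 in Stirling, against 18.6 in Bass, 19.7 in Harrington and 18.7 in Baudin. Chance gives such a gap in about 1 of 20 groups. In the same library the 299-nt exon of the gene had a scaled depth of 28.7, near the highest of the 4 libraries.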

How the results depend on the processing

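The number of exons that changed was 75 of 374, from 0 to 46 with 1 variety left out, 114 of 760 for exons in at least 3 varieties, and 133 with scaling by the summed depth. Of the calls, 53.3% were higher at 48 h, against 26.2% of 107 without scaling and 18.0% of 133 with the summed depth, where the median of all exons was -0.23 and -0.36. With no replicate block for variety 87 exons changed, and no call of the 4 genes was altered. The 117-nt exon of VP1 kept its direction in all 12 alternatives and lost its call in 4, with 0.57 for the summed depth and 0.83 to 0.94 with 1 variety left out (adjusted p = 0.0148 to 0.0849 over all alternatives, limma). The 101-nt exon of VP1 and both exons of AUX/IAA kept their direction and passed the test in none of the alternatives that could be fitted to them.

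Changes in the A3S stretch were called in 0 of 136 events, also with 1 variety left out (0 in each case), and in 3 with no replicate block. In A5S they were called in 2 of 37, 0 with no replicate block, 0 to 1 with 1 variety left out and 0 of 95 for events in at least 3 varieties. The AUX/IAA stretch, -0.04 on the log2 scale, turned to 0.23 at the lower limit and 0.0417 with no allowance for bases of depth 1, and ran from -0.79 to 0.56 with 1 variety left out. The VP1 stretch, -0.30, turned to 0.0804 with no allowance and ran from -0.93 to 0.19. None of these passed the test, and the cause was not tested. The distance minimum left out both events. A minimum depth of 10 on both forms left the A3S event of VP1 in 3 of 8 libraries, since the depth of its exon was below 10 in the others. With events required in at least 2 libraries, SnRK2 had A3S in 0 of 4.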
